A study of Caenorhabditis elegans with 9 samples.

Results

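The numbered cuticle collagens of *Caenorhabditis elegans*, the genes named col- followed by a number, were followed across 3 concentrations of hemin. Members were all genes with such a symbol on a probe set that named no other gene, leaving out col-7, col-19, col-62, col-63 and col-122, the adult-onset collagens around col-19. This gave 125 genes, read by 141 probe sets, of 17118 genes with a probe set of their own on the array. Where a gene had several probe sets, the one with the highest mean stood for it, which affected 16 members.

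Cuticle collagens are secreted by the hypodermis, the epidermis of the worm, where chains with Gly-X-Y repeats assemble into trimers that are processed and cross-linked outside the cell. A new cuticle is laid down before each molt, and different collagens are transcribed at different larval stages and in successive waves within one molting cycle. Their RNA levels therefore depend on the stage and on the position within the cycle at which worms are collected.

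Worms were cultured in mCeHR-2, an axenic liquid medium, with hemin, a form of heme that this animal must take up since it cannot make its own, at 4, 20 or 500 uM. Synchronized F2 larvae were used in all groups and RNA was taken from whole worms at the late L4 stage, the end of the last larval stage before the final molt. Each concentration had 3 biological replicates, A, B and C, with 1 Affymetrix array each, so 9 arrays were available. The 20 uM group was the study's reference, and no strain or mutation is named in the labels. Values are log2 expression, and because probe sets differ in how well they bind, levels are compared between arrays and not between genes.

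Of the 125 members 120 were tested. A filter on the mean level removed the dimmest 25% of probe sets, and with them col-40, col-55, col-83, col-126 and col-163, whose values lay between 2.67 and 3.82 on all arrays. With so few arrays a log2 difference had a median standard error of 0.14 for tested members and 0.12 for all 16911 tested probe sets. A probe set was called when its adjusted p from limma was at most 0.05.

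One library stood apart. The Spearman correlation of 4 uM replicate A with the other arrays was 0.973 to 0.985, and its median over all gene probe sets was 5.57, against 5.43 to 5.47 on the others. The tested members deviated from their own mean over 9 arrays by a median of 0.32 on that array, 0.09 on 4 uM replicate B and 0.05 on 4 uM replicate C. On the 20 and 500 uM arrays this median lay between -0.17 and 0.01, and over all tested probe sets it lay between -0.02 and 0.05 on all 9 arrays. Values without 4 uM replicate A are given below for the called genes, the medians, the adult-onset collagens and the gene lists.

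At 4 uM hemin 11 collagen genes were higher than at 500 uM, by 1.76-fold to 4.78-fold, and 5 of them were also called higher than at 20 uM. The 11 were col-8, col-81, col-106, col-124, col-129, col-137, col-139, col-140, col-143, col-181 and col-184, and 0 members were called in the opposite direction. All 11 had 4 uM arrays above every 20 uM and every 500 uM array, while the 20 and 500 uM arrays overlapped for each of them. The 11 were picked by the contrast of 500 and 4 uM on these arrays, so their separation there is no separate support. Over all tested probe sets, 14.6% did not overlap at 500 against 4 uM, 13.4% at 4 against 20 uM and 16.8% at 500 against 20 uM. Among the tested members 9.17% were called lower at 500 than at 4 uM, against 1.3% of all tested probe sets (2.07% in either direction). For 4 minus 20 uM 4.17% were called higher, against 0.68% (0.911% in either direction). All 11 were also called by the F-test over the 3 groups, which called 1.62% of all tested probe sets. That test comes from the same fit and arrays as the contrast that picked the 11. Its calls on them are therefore no separate support. RNA came from whole worms, so a change in the number of cells of a type cannot be told apart from a change in RNA per cell.

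**Figure D1:**
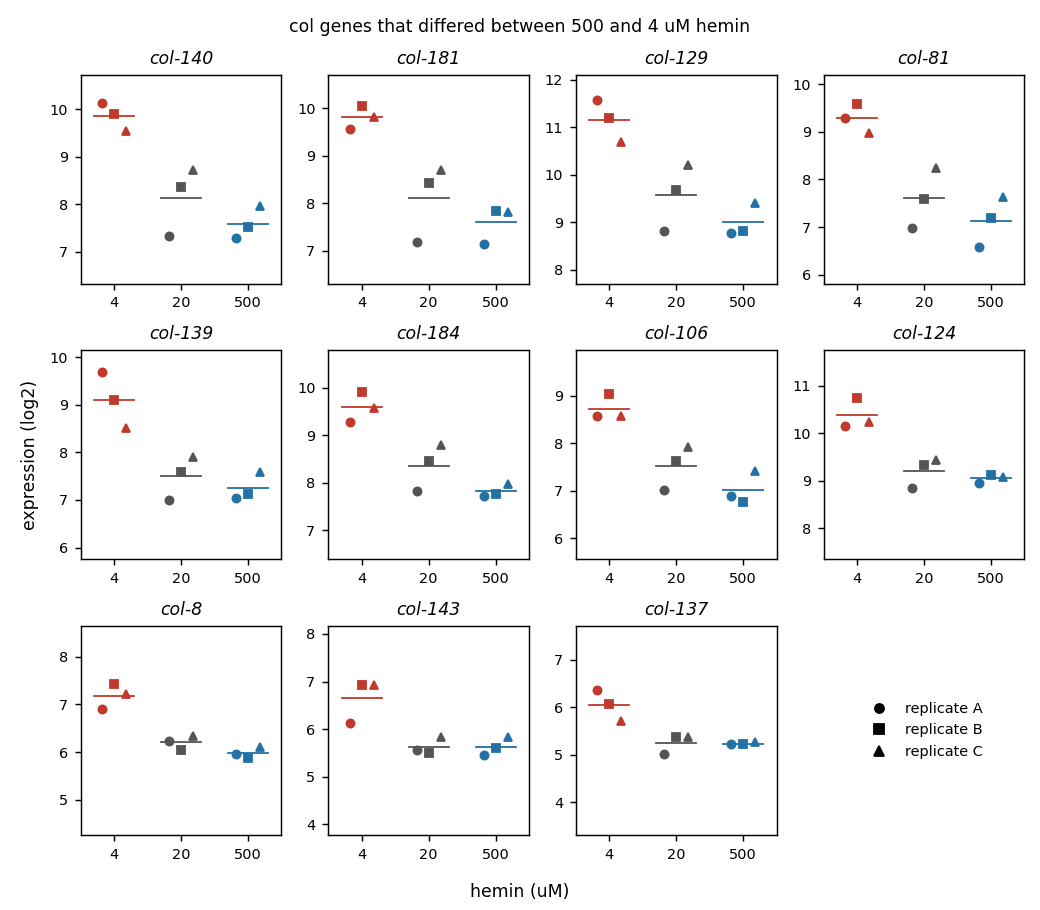
Log2 expression of the 11 called collagen genes on each array, by hemin concentration (uM); each point is 1 array and the lines mark group means. The 3 arrays at 4 uM lie above the arrays at 20 and 500 uM in every panel, and the 20 and 500 uM arrays overlap. The genes shown were picked by the 500 minus 4 uM contrast on these same arrays.

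The largest difference was that of col-140. Its values were 10.12, 9.90 and 9.54 on the 4 uM arrays A, B and C, 7.33, 8.37 and 8.72 at 20 uM, and 7.30, 7.52 and 7.97 at 500 uM. The 4 uM arrays were the highest 3, and 20 uM replicate A lay among the 500 uM arrays. The gene was lower at 500 than at 4 uM by 4.78-fold (log2 -2.26, SE 0.32, adjusted p = 0.0054) and higher at 4 than at 20 uM by 3.29-fold (log2 1.72, SE 0.32, adjusted p = 0.0420).

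For col-139 the values were 9.69, 9.11 and 8.51 at 4 uM, 6.99, 7.60 and 7.91 at 20 uM, and 7.04, 7.12 and 7.58 at 500 uM. Here the lowest 4 uM array, C, still lay above the highest 20 uM array, also C. The difference was 1.61 for 4 minus 20 uM (SE 0.31, adjusted p = 0.0454) and -1.86 for 500 minus 4 uM (SE 0.31, adjusted p = 0.0131).

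For col-184 the values were 9.28, 9.91 and 9.56 at 4 uM, 7.82, 8.46 and 8.79 at 20 uM, and 7.71, 7.77 and 7.98 at 500 uM. The 500 uM arrays lay close together, and 20 uM replicate A fell among them. The difference was 1.23 for 4 minus 20 uM (SE 0.23, adjusted p = 0.0454) and -1.77 for 500 minus 4 uM (SE 0.23, adjusted p = 0.00344). Its neighbour on the chromosome, col-183, differed by 0.16 (adjusted p = 0.768) and -0.08 (adjusted p = 0.826). Of the 12 pairs of tested or untested members that are adjacent in the gene order, which hold 22 members, this was the 1 pair with a call.

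For col-124 the values were 10.14, 10.75 and 10.24 at 4 uM, 8.85, 9.34 and 9.44 at 20 uM, and 8.96, 9.12 and 9.08 at 500 uM. All 20 and 500 uM arrays lay below the 4 uM arrays and overlapped each other. It was higher at 4 than at 20 uM by 1.16 (SE 0.18, adjusted p = 0.0176) and lower at 500 than at 4 uM (log2 -1.32, SE 0.18, adjusted p = 0.00473).

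The smallest adjusted p belonged to col-8, a dimmer probe set. Its values were 6.91, 7.43 and 7.23 at 4 uM, 6.22, 6.04 and 6.35 at 20 uM, and 5.95, 5.88 and 6.11 at 500 uM. Its lowest 4 uM array, A, lay above the highest 20 uM array, C. The difference was 0.98 for 4 minus 20 uM (SE 0.14, adjusted p = 0.0101) and -1.21 for 500 minus 4 uM (SE 0.14, adjusted p = 0.00199).

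The other 6 genes were called for 500 minus 4 uM and missed the threshold for 4 minus 20 uM. For col-181 the values were 9.57, 10.05 and 9.81 at 4 uM, 7.19, 8.42 and 8.71 at 20 uM, and 7.13, 7.84 and 7.82 at 500 uM, a 500 minus 4 difference of -2.21 (SE 0.35, adjusted p = 0.0107). For col-129 they were 11.58, 11.19 and 10.69, then 8.82, 9.69 and 10.22, then 8.78, 8.81 and 9.41, a difference of -2.15 (SE 0.34, adjusted p = 0.0101). In both genes replicate A was the lowest 20 uM array.

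For col-81 the values were 9.30, 9.58 and 8.97 at 4 uM, 6.97, 7.60 and 8.25 at 20 uM, and 6.57, 7.18 and 7.63 at 500 uM, a 500 minus 4 difference of -2.15 (SE 0.33, adjusted p = 0.00913). For col-106 they were 8.58, 9.03 and 8.58, then 7.02, 7.64 and 7.91, then 6.89, 6.77 and 7.43, a difference of -1.70 (SE 0.25, adjusted p = 0.00593). Both had the 20 uM mean between the others. The 4 minus 20 difference of col-81 was 1.68 (SE 0.33, adjusted p = 0.0567).

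The last of the 11, col-143 and col-137, had the smallest differences. For col-143 the values were 6.13, 6.93 and 6.92 at 4 uM, 5.55, 5.49 and 5.84 at 20 uM, and 5.45, 5.61 and 5.84 at 500 uM, a 500 minus 4 difference of -1.03 (SE 0.21, adjusted p = 0.0367). For col-137 they were 6.36, 6.07 and 5.72, then 5.02, 5.37 and 5.37, then 5.23, 5.22 and 5.26, a difference of -0.81 (SE 0.16, adjusted p = 0.0297). In both genes the 20 and 500 uM arrays overlapped. Just past the threshold was col-20, with a 500 minus 4 difference of -0.98 (SE 0.21, adjusted p = 0.0508).

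Across the 11 genes the 4 minus 20 difference ran from 0.79 to 1.72, with adjusted p up to 0.0815, and the 500 minus 20 difference from -0.58 to 0.00, with adjusted p from 0.724 to 1.00. The 20 uM mean lay between the others in 10 of the 11, col-143 being the exception. On 20 uM replicate A 9 of the 11 had their lowest 20 uM value. The highest 4 uM array was B for 7 of them and A for 4, so the difference did not rest on replicate A alone. Without that array the 4 minus 20 difference ran from 0.64 to 1.83, and the 500 minus 4 difference from -2.33 to -0.66, with all 11 called (adjusted p up to 0.0354).

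Single arrays moved the counts. The 5 calls at 4 minus 20 uM became 11 when 4 uM replicate A was left out and 2 when 4 uM B was. Leaving out 20 uM A or 20 uM B gave 0, leaving out 500 uM A gave 3, and leaving out 500 uM B or 500 uM C gave 2. The 11 calls at 500 minus 4 uM became 5 when 4 uM B was dropped, 7 for 500 uM B and 19 for 4 uM C. The shares of all tested probe sets called moved too, from 0.408% to 1.86% for 4 minus 20 uM and from 0.993% to 4.03% for 500 minus 4 uM. By the F-test the count of 11 became 2 when 4 uM B was dropped, 6 for 20 uM B, 5 for 500 uM A and 3 for 500 uM B. The shares of all probe sets called by the F-test in these fits are not given. Whether the F-test counts moved apart from those of other probe sets was therefore not examined. Of the calls for 500 minus 4 uM, those of col-8, col-106, col-124, col-140 and col-184 held in all 19 alternative settings. The call was lost in 1 of 19 for col-81 and col-181 and in 3 for col-129 and col-139. It was lost in 8 for col-137 and in 10 for col-143. For 4 minus 20 uM, col-8 and col-124 lost their call in 3 of 19, col-140 in 9, and col-139 and col-184 in 10.

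Between 500 and 20 uM 0 of the 120 tested members were called by limma, against 0.242% of all tested probe sets, and 6 had an unadjusted p under 0.05 (5% of members and 6.65% of all probe sets). The smallest p belonged to col-76, with 7.51, 7.64 and 7.70 at 20 uM and 7.86, 7.87 and 8.02 at 500 uM. Its 500 uM arrays lay above all others, by 0.30 over 20 uM on average (SE 0.09, adjusted p = 0.447). The next were col-49 (log2 -1.18, SE 0.40, adjusted p = 0.524), col-97 (log2 -0.49, adjusted p = 0.625), col-128 (log2 -0.31, adjusted p = 0.653), col-184 (log2 -0.54, adjusted p = 0.724) and col-149 (log2 -0.46, adjusted p = 0.736). The main fit shares 1 estimate of the spread over the 3 groups, so the 4 uM arrays enter the standard error of this contrast too. The median SD of the tested members was 0.26 at 4 uM, 0.11 at 20 uM and 0.14 at 500 uM. In a fit of the 6 arrays of this comparison alone, 3 members were called, col-38, col-79 and col-110, all lower at 500 uM. That fit called 1.20% of all tested probe sets.

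Most tested members were somewhat higher at 4 uM, called or not. The median difference over the 120 was 0.19 for 4 minus 20 uM (quartiles 0.09 and 0.34), -0.02 for 500 minus 20 uM and -0.21 for 500 minus 4 uM, while over all tested probe sets it was 0.02, 0.01 and 0.00. A positive 4 minus 20 difference was seen in 101 members (84.2%, against 54.4% of all tested probe sets), and an unadjusted p under 0.05 in 40 (33.3% against 8.7%). Without 4 uM replicate A the median was 0.12, against -0.01 for all probe sets. In that fit 94 members were positive, and the share of all probe sets that were positive is not given. For 500 minus 4 uM the median was then -0.16, against 0.02.

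**Figure D2:**
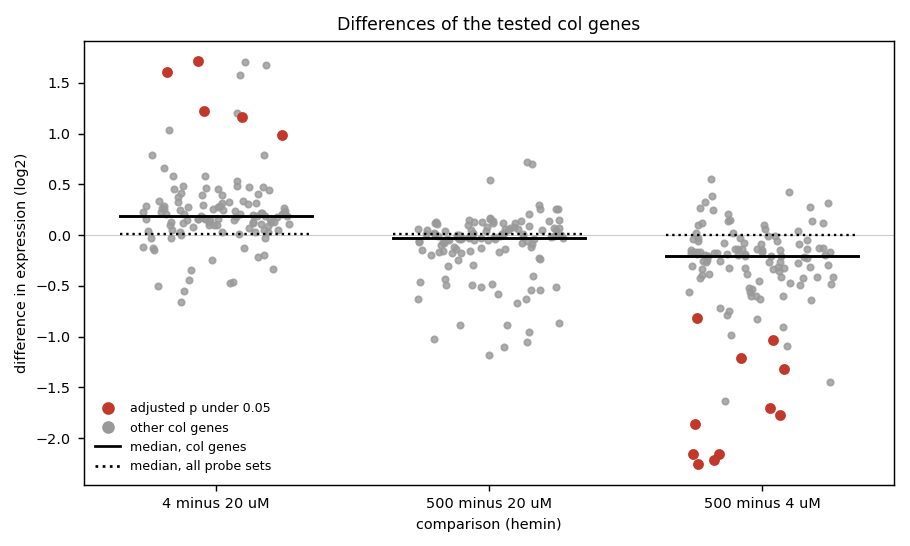
Log2 differences of the tested collagen genes in each of the 3 contrasts; each point is 1 gene, red points are called, and solid and dotted lines mark the medians of the collagen genes and of all tested probe sets. The collagen median is 0.19 for 4 minus 20 uM, -0.02 for 500 minus 20 uM and -0.21 for 500 minus 4 uM.

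Arrays of 2 groups did not overlap for 39 members at 4 against 20 uM, all higher at 4 uM (32.5%, against 13.4% of all tested probe sets in either direction). Without 4 uM replicate A, the other 4 uM arrays lay above all 20 uM arrays for 51 members. Smaller groups separate more easily, and the share over all probe sets was not counted. The 51 can therefore not be set against the 39. At 500 against 4 uM the arrays of the 2 groups did not overlap for 44 members (36.7% against 14.6%). Of these, 43 were lower at 500 uM and 1, col-76, was higher. At 500 against 20 uM the count was 23 (19.2% against 16.8%), with 8 higher and 15 lower. The group mean was highest at 4 uM for 93 members (77.5% against 39.1%) and fell from 4 to 20 to 500 uM for 58 (48.3% against 21.8%). It was lowest at 4 uM for 12 (10% against 34.8%).

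**Figure D3:**
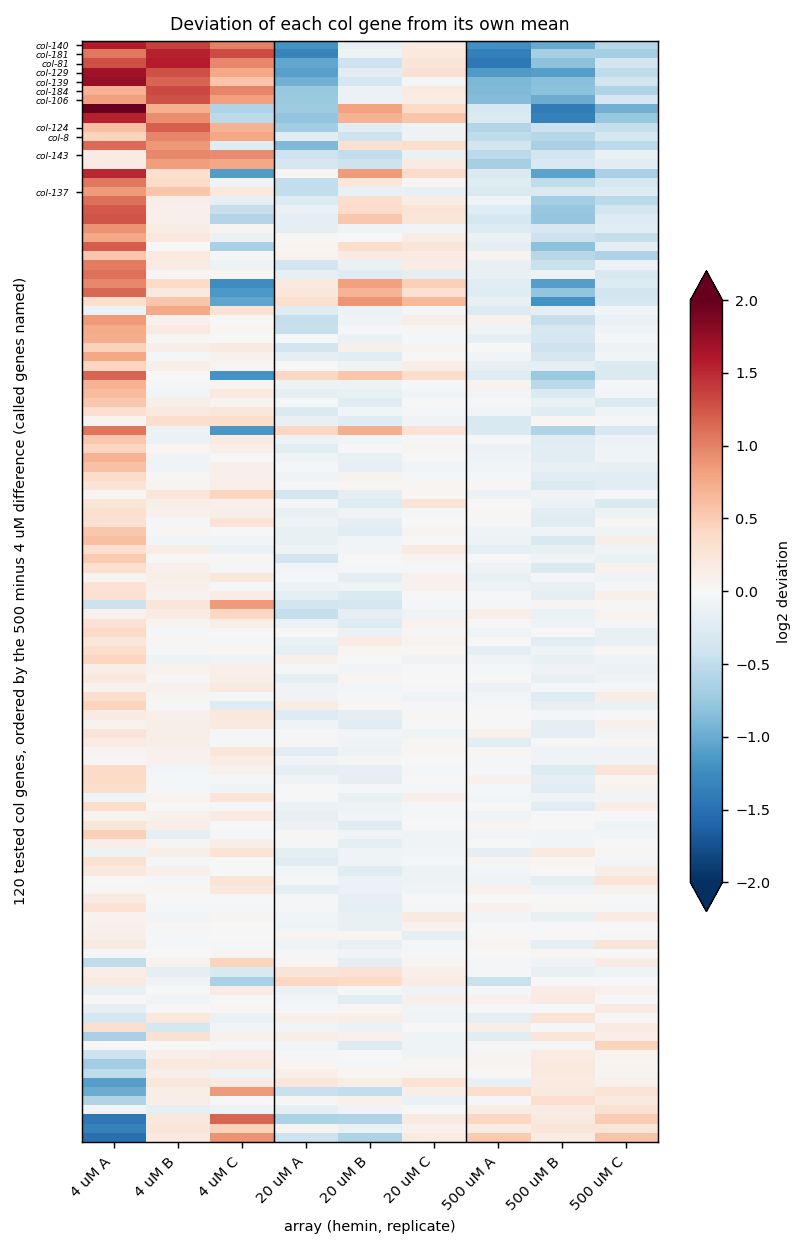
Heat map of the tested collagen genes over the 9 arrays, as log2 deviation from each gene's own mean. Most genes are above their mean on the 4 uM arrays, and 4 uM replicate A has the largest median deviation, 0.32.

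Collagens of known role were described apart. None of those measured was called in any contrast of the main fit of 9 arrays. The dauer-associated col-2 differed by 0.28 for 4 minus 20 uM (SE 0.12, adjusted p = 0.556), 0.01 for 500 minus 20 uM and -0.27 for 500 minus 4 uM (adjusted p = 0.424). Of the targets of BMP-like signalling, which sets body size, col-41 differed by 0.15, 0.70 and 0.55 in these contrasts (SE 0.49), col-141 by -0.44, -0.17 and 0.27 (SE 0.29), and col-142 by -0.13, 0.01 and 0.13 (SE 0.22). Their adjusted p lay between 0.663 and 1.00.

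For col-120, a collagen required for the long life of some long-lived strains, the differences were 0.58, -1.05 and -1.63 (SE 0.61), with an adjusted p of 0.320 for 500 minus 4 uM. The membrane collagen col-99 differed by 0.09, 0.06 and -0.03 (SE 0.09), col-34 by 0.25, -0.02 and -0.27 (SE 0.09), and col-12 by 0.21, 0.15 and -0.06 (SE 0.08). For col-43 they were 0.13, -0.06 and -0.19 (SE 0.05), for col-14 0.28, -0.51 and -0.79 (SE 0.30), and for col-38 -0.34, -0.87 and -0.53 (SE 0.45). Several of these uncalled differences changed sign in other settings: col-120 at 4 minus 20 uM was -0.10 without 4 uM A, and col-41 and col-38 reversed when single arrays were left out. Without 4 uM C, col-38 and col-120 were called lower at 500 than at 4 uM, in a fit that called 4.03% of all tested probe sets. In the fit of 6 arrays col-38 was called lower at 500 than at 20 uM, as given above.

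The members also differed in how far the replicates lay apart. At 4 uM 23 of the 120 (19.2%) spanned more than 1 log2 unit over the 3 arrays, against 5.77% of all tested probe sets. At 20 uM this was 7 members (5.83% against 0.284%) and at 500 uM 4 (3.33% against 0.621%). The limit of 1 was chosen with values known and no test was made.

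In 15 of the 23 replicate A was highest and C lowest at 4 uM, in 5 A was lowest and C highest, and 3 followed neither pattern. For col-120 the 4 uM values were 8.96, 7.58 and 6.26, a span of 2.70, with 6.16, 7.67 and 7.25 at 20 uM and 6.54, 5.46 and 5.90 at 500 uM. For col-138 they were 11.65, 10.46 and 9.01, with 10.19, 10.98 and 10.52, then 9.85, 9.06 and 9.49. In col-138 the 4 uM arrays enclosed all values of the other groups, and in col-120 replicate A lay above them while C lay among them.

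Replicate A was lowest and C highest for col-90, with 8.43, 10.06 and 11.01 at 4 uM, 9.22, 9.24 and 10.03 at 20 uM, and 10.26, 10.03 and 10.35 at 500 uM. The same held for col-41, with 9.05, 10.75 and 11.46 at 4 uM. The remaining genes of this pattern were col-39, col-54 and col-156. Replicate A was the highest 4 uM array in 16 of the 23 and the lowest in 6. One of the 23, col-139, was among the 11 called genes. Called genes were also among those that spanned more than 1 at 20 uM: col-81 (1.27), col-129 (1.39), col-140 (1.38) and col-181 (1.52). The others there, col-60, col-88 and col-120, were not called. At 500 uM col-81 spanned 1.06. The strut collagens bli-1 and bli-2, which are not members, had 11.38, 10.41 and 8.98, and 11.24, 10.34 and 8.99, on the 4 uM arrays.

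**Figure D4:**
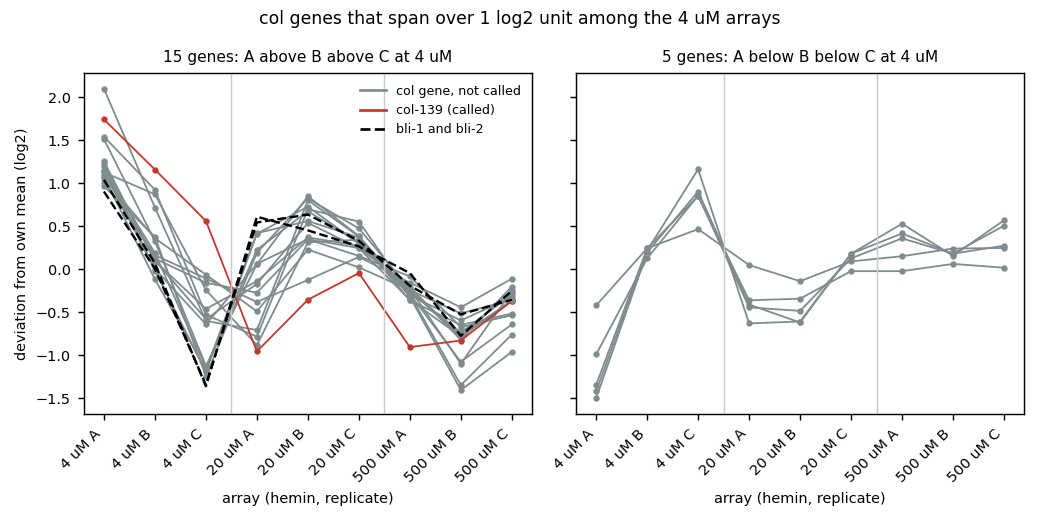
Deviation from each gene's own mean (log2) on each array, for collagen genes whose 3 arrays at 4 uM span more than 1 log2 unit, with bli-1 and bli-2 as dashed lines and col-139 in red; the 3 genes of neither pattern are not drawn. In 15 genes (left) replicate A is highest and C lowest at 4 uM, and in 5 (right) A is lowest and C highest.

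At the other end, 4 members, col-17, col-93, col-125 and col-160, were above 13 on every array, with ranges over the 9 arrays of 0.11 to 0.37, and 0 of them were called. The smallest of these ranges was that of col-125, with 14.06, 14.09 and 14.13 at 4 uM, 14.06, 14.03 and 14.04 at 20 uM and 14.07, 14.11 and 14.09 at 500 uM. Whether values so near the top of the scale, which ended at 14.37, could show a difference was not tested.

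Related probe sets can share transcripts. Of the 125 members 27 were read by an s_at and 22 by an x_at probe set, designs that can match several transcripts, and this held for 7 of the 11 called genes. The 12 further tested probe sets of members had the same sign as the one used in 10, 6 and 11 cases for 4 minus 20, 500 minus 20 and 500 minus 4 uM, with median gaps of 0.09, 0.08 and 0.12. The largest gap was at col-119. The probe set used gave 12.58 to 12.80 on all arrays and a 4 minus 20 difference of 0.13, while a dimmer one gave 7.41, 8.16 and 8.20 at 4 uM, 6.66, 6.32 and 6.76 at 20 uM, and 6.60, 6.37 and 6.78 at 500 uM. By the dimmer one the difference was 1.35 (SE 0.21, adjusted p = 0.0185), and for 500 minus 4 uM -1.35 (adjusted p = 0.0106).

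Of the adult-onset collagens left out by the rule, 2 were called. For 4 minus 20 uM col-19 differed by 2.28 (SE 0.32, adjusted p = 0.00874) and col-122 by 1.81 (adjusted p = 0.0350), and for 500 minus 4 uM by -2.50 and -2.56 (adjusted p = 0.00299 and 0.00282). Without 4 uM replicate A these were 2.25 and 1.65, and -2.47 and -2.40, all called. The third one measured, col-63, was not called (log2 -0.25 and -0.66). No test was made of whether the 11 genes differ from these.

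Other genes of the cuticle were not called in any contrast with all arrays. This held for the 18 measured collagens named for their mutant shape (median 4 minus 20 difference -0.09), among them 5 furrow collagens (-0.25), for 15 tested processing enzymes (-0.15), 21 molting genes (-0.16), 18 tested regulators, 11 tested other cuticle proteins and 3 basement membrane collagens. The smallest adjusted p for 4 minus 20 uM among these lists was that of the furrow collagen dpy-2, at 0.154 (log2 -0.43, SE 0.11). For 500 minus 20 uM the difference was positive in 0 of the 18 shape-named collagens (median -0.30) and in 3 of the 21 molting genes (-0.20). It was positive in 6 of 15 processing enzymes, 9 of 18 regulators, 6 of 11 other cuticle proteins and 0 of 3 basement membrane collagens. Of all tested probe sets 53.7% were positive, and of the tested members 42.5%. Without 4 uM replicate A, the furrow collagen dpy-7, the prolyl hydroxylase gene phy-2 and the molting list's wrt-10 were called lower at 4 than at 20 uM, and phy-2 lower at 500 than at 20 uM.

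Among markers of other cells, those of oocytes and sperm held calls. Of 8 oocyte genes 4 were called higher at 4 than at 20 uM and 4 lower at 500 than at 4 uM, with a median 4 minus 20 difference of 0.60. The 4 at 4 minus 20 uM were perm-2 (1.72), pos-1 (0.95), puf-5 (0.75) and egg-1 (0.69). The mean level of the 8 was 7.93 to 8.37 at 4 uM, 7.43 to 7.49 at 20 uM and 7.20 to 7.50 at 500 uM. Of 8 measured sperm genes 0 were called at 4 minus 20 uM (median 0.56) and 3 were lower at 500 than at 4 uM, with mean levels of 7.60 to 8.88, 7.56 to 7.81 and 6.85 to 7.30. The 10 measured markers of hypodermis and seam, where cuticle collagens are made, had 0 calls, a median 4 minus 20 difference of -0.20 and mean levels of 8.45 to 8.62, 8.57 to 8.77 and 8.46 to 8.62. Markers of intestine, muscle, pharynx, neurons and germline had 0 calls. Without 4 uM replicate A the oocyte counts were again 4 and 4 (median 4 minus 20 difference 0.51) and the sperm counts 0 and 3 (median 0.14), while of the hypodermal markers wrt-2, wrt-10 and nlp-29 1 was called higher and 2 lower at 4 than at 20 uM, and the pharynx marker pha-4 was higher at 500 than at 20 uM. Sperm genes deviated from their own means by a median of 1.46, 0.55 and -0.03 on 4 uM A, B and C. The part of stage or cell composition in the collagen differences was not tested.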

How the data were processed

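Expression was deposited as log2 values, 1 for each probe set on each array, which the authors had normalized across arrays. MAS5 and RMA are named in the submitters' processing notes, and the choice between them is not stated in the labels or files. Values lay between 2.02 and 14.37. No detection calls or scan dates were used, so neither background nor scan batch was examined. The 77 control probe sets of 22625 were left out, as were the dimmest 25% of the rest by mean. Groups and replicate letters came from the labels, and gene names from the platform annotation, with 125 of 125 member symbols unchanged in a current gene table (WBcel235, used for names and gene order).

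limma 3.58.1 in R 4.3.3 fitted 1 mean per concentration over 9 arrays, with 6 residual degrees of freedom and a variance trend. P-values are two-sided and Benjamini-Hochberg adjusted over 16911 probe sets within a contrast. Errors are limma standard errors. This fit was first tested on simulated data for 4 minus 20 uM. It recovered 37% of the simulated differences of 0.5 log2 and 84% of those of 1.0 log2, and 4.72% of its calls were false. The changed probe sets were picked at random from all 16911, with independent normal noise of 1 SD per probe set in all groups. Tested members had a median SD at 4 uM of 0.26, against 0.16 over all tested probe sets. These rates may therefore not hold for them. A gene that was not called may therefore still differ. The 19 alternative settings were quantile normalization, array centring, other filters, other variance priors, the replicate block, array weights, fits of 6 arrays, the mean of a gene's probe sets, and 9 fits that left out 1 array.

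Named genes were all called members, the 6 with the smallest p where fewer than 6 were called, members of the lists of known role, adjacent pairs with a call, and called or leading genes of the other lists. Wide genes, bright genes and col-119 were chosen after their values were seen. The members and lists were chosen with earlier results of these data known. Python 3.11.15 with pandas 2.3.3 handled tables, and matplotlib 3.10.9 drew figures.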

Additional observations from a re-analysis of the deposited data

Results flagged for a closer look

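Among the probe sets with several names, 2 that name several collagen genes each, and so belong to no single member, carried a signal outside the comparisons above. The probe set of col-178 and col-179 had values of 9.77, 10.06 and 9.87 at 4 uM and 8.03, 8.23 and 8.76 at 20 uM, a difference of 1.56 (SE 0.28, limma adjusted p = 0.0346), and differed by -2.10 for 500 minus 4 uM (adjusted p = 0.00355). The probe set of col-7 and col-62, both adult-onset collagens, differed by 0.99 for 4 minus 20 uM (adjusted p = 0.0347) and by -1.14 for 500 minus 4 uM (adjusted p = 0.00935). Which gene of each pair gave the signal cannot be told apart. Groups of 3 arrays were not examined for single outlying values.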

How the results depend on the processing

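The collagen median for 4 minus 20 uM, 0.19, ran from 0.12 to 0.24 with 1 array left out and from 0.10 to 0.20 in the other settings. For 500 minus 4 uM it was -0.21 and ran from -0.26 to -0.16 and from -0.27 to -0.14. Both medians kept their sign in all 19 settings. The median for 500 minus 20 uM was -0.02 and became 0.00203 without 20 uM C. The count at 4 minus 20 uM was 5 and became 3 by quantile normalization (0.751% of all probe sets called), 17 with array weights (5.32%) and 0 in the fit of 6 arrays (0.509%), and 0 to 11 when 1 array was left out. At 500 minus 20 uM it was 0 and became 3 in the fit of 6 arrays (1.20%) and 0 to 0 with an array left out. At 500 minus 4 uM it was 11 and became 18 with array weights (4.81%) and 5 to 19 with an array left out. By the F-test it was 11, then 17 and 2 to 14, without the shares of all probe sets, which are not given. Across probe sets, same-lettered arrays deviated together with correlations of -0.15 to 0.29, so the letters were not taken as pairs. Some called genes did share an order of letters. For col-81, col-129, col-139, col-140 and col-184, A was lowest and C highest at both 20 and 500 uM, though not at 4 uM. The other called genes did not have this order in both groups, and its cause was not tested. With the replicate block 6 members were called at 4 minus 20 uM (0.875% of all probe sets), 3 of them among the main 5. At 500 minus 4 uM 11 were called with it (1.90%), 10 of them among the main 11. Signs of uncalled genes reversed in 31 cases, for which the cause was not tested. By quantile normalization col-2 at 500 minus 20 uM was -1.16e-05, col-34 there 0.00601 and col-99 at 500 minus 4 uM 0.0178. With arrays centred col-2 was -0.000877 and col-142 -0.00290 at 500 minus 20 uM, and col-99 0.00302 at 500 minus 4 uM. With array weights col-2 was -6.83e-05 at 500 minus 20 uM, col-141 -0.157 and col-142 -0.210 at 500 minus 4 uM, and col-142 0.239 and col-14 -0.00290 at 4 minus 20 uM. With 1 array left out, the 4 minus 20 difference ran from -0.369 to 0.833 for col-41, -0.323 to 0.155 for col-142, -0.101 to 1.25 for col-120, -0.0936 to 0.535 for col-14 and -0.882 to 0.264 for col-38. The 500 minus 20 difference ran from -0.0399 to 0.0879 for col-2, -0.0886 to 0.146 for col-142 and -0.0904 to 0.0458 for col-34. The 500 minus 4 difference ran from -0.131 to 1.07 for col-41, -0.164 to 0.498 for col-141, -0.147 to 0.332 for col-142, -0.0932 to 0.00430 for col-12 and -1.13 to 0.0135 for col-38.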
